A study of Mus musculus with 2 samples.

Results

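Chemokines and chemokine receptors that place lymphocytes and dendritic cells in tissue were described in 2 single-cell libraries of mouse colon tumour. The 10 genes were taken from the 55357 genes of the count matrices by their listed symbols: the ligands Cxcl9, Cxcl10, Cxcl16, Ccl17, Ccl22 and Ccl20 and the receptors Cxcr3, Cxcr6, Ccr7 and Ccr6. All of them were present in both matrices. One library, labelled KO, came from an animal or animals with floxed alleles of Ecm1 (ECM1Flox/Flox) and Villin-Cre, a recombinase transgene driven by the promoter of the gut epithelial gene Villin. The other, labelled WT, carried the same floxed alleles without Cre, so neither library holds unmodified Ecm1 alleles. The labels give neither the number, age or sex of the animals nor how the tumours were raised, and the extraction protocol in them describes bulk RNA. With 1 library per genotype there is no replicate and no test. Every interval below covers counting error only, and a difference between the libraries cannot be told apart from a difference between animals, dissections or preparations.

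CXCL9 and CXCL10 are induced by interferons and bind CXCR3 on effector T cells and NK cells. CXCL16 is made as a membrane-bound protein that can be shed, and its receptor CXCR6 marks effector and tissue-resident lymphocytes. CCL17 and CCL22 are products of dendritic cells and macrophages that attract CCR4-bearing regulatory and helper T cells. CCR7 carries maturing dendritic cells and recirculating lymphocytes towards lymphatic vessels and lymph nodes, while CCL20 from gut epithelium draws CCR6-bearing B cells, T cells and dendritic cells.

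After filtering, 4233 cells of the library labelled KO and 8262 of the one labelled WT were kept, with median depths of 10429 and 2741 UMIs (unique molecular identifiers, 1 per captured transcript). The libraries differed in make-up. Epithelial-like cells were 55.1% and 25.3% of cells, neutrophil-like cells 4.72% and 27.1%, and conventional dendritic-like cells 1.02% and 4.62%. Ecm1 stood at 40.5 CPM (UMIs per 1000000 UMIs of the class) among the epithelial-like cells labelled KO and at 33.7 CPM among those labelled WT, a ratio of 1.2 (95% interval 1.12 to 1.3). This count does not show the deletion, and where its reads lie relative to the deleted part is not known. Over all barcodes, Xist had 103646 and 7 UMIs and the Y-linked Ddx3y had 0 and 6175, so the libraries also differ in sex-linked transcripts, and Cxcr3 lies on the X chromosome. The libraries shared 17 cell barcodes. Some clusters were left unnamed. A shallow one held 4.75% and 1.69% of all cells. Sub-clusters with low marker scores or led by another type's genes held 2.48% and 2.88% among monocytes and macrophages, 0.496% and 1.25% among T, innate lymphoid and NK cells, and 0.165% and 0.496% among conventional dendritic cells.

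Promoter sequences are shown for 5 ligands: 2 pairs of neighbours on a chromosome, Cxcl9 with Cxcl10 and Ccl17 with Ccl22, whose members had different ratios or source cells, and the epithelial ligand Ccl20. Of the 10 members, 8 had promoters in the RefSeq table, 9 promoters in all. Cxcl16 and Ccr7 had no entry. Each window is the 250 bases before the RefSeq start site in build GRCm38.p6, printed 5′ to 3′ on the gene's strand. The count files were made on another build, GRCm39, so these coordinates belong to the sequences alone. Cxcl9 (chr5:92328080-92328329) and Cxcl10 (chr5:92348890-92349139) lie on the minus strand of chromosome 5, Ccl17 (chr8:94810203-94810452) and Ccl22 (chr8:94745434-94745683) on the plus strand of chromosome 8, and Ccl20 (chr1:83116516-83116765) on the plus strand of chromosome 1. Capitals mark matches, searched on both strands, to the interferon-stimulated response element (GAAA, any 2 bases, GAAA), the interferon gamma-activated site TTCNNNGAA or the kappaB site.
Cxcl9: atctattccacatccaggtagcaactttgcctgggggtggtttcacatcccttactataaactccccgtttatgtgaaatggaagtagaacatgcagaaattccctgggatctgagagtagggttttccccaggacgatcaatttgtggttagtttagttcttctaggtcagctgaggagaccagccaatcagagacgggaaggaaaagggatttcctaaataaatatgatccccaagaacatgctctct
Cxcl10: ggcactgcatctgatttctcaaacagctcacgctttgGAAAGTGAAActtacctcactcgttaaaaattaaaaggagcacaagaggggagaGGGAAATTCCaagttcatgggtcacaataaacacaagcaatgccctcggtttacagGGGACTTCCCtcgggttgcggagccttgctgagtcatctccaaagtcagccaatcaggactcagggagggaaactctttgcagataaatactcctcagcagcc
Ccl17: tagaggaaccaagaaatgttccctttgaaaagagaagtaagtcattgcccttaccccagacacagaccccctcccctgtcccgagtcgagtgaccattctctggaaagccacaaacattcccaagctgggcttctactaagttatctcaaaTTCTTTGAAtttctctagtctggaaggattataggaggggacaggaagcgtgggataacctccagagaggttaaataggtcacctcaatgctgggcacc
Ccl22: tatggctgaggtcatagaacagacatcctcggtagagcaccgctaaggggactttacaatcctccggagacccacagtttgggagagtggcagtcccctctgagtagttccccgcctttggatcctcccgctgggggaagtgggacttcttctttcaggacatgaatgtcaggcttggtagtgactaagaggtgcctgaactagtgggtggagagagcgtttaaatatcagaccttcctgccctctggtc
Ccl20: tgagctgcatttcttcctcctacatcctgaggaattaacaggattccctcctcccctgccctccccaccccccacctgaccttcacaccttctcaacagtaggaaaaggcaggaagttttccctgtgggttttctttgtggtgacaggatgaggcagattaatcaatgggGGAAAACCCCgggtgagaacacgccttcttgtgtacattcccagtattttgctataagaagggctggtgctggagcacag

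The Cxcl10 window held 1 interferon-stimulated response element, at -213 to -204 from the start, and 2 kappaB matches, at -159 to -150 and at -103 to -94. The neighbouring Cxcl9 window held none of the 3 motifs in these letters. Ccl17 had 1 interferon gamma-activated site at -99 to -91, Ccl22 had no match, and Ccl20 had 1 kappaB match at -80 to -71. Among 32851 RefSeq promoters of the same length, 2.98% held the response element, 7.02% the activated site and 3.9% the kappaB site. A match describes letters in the window and does not show binding.

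Each member had its own set of source cells. The heat map of levels shows Cxcl16 over macrophage-, monocyte- and dendritic-like cells, Ccl17, Ccl22 and Ccr7 over dendritic-like cells, Cxcr6 over T-like cells, and Cxcl10 spread over nearly every class.

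**Figure D1:**
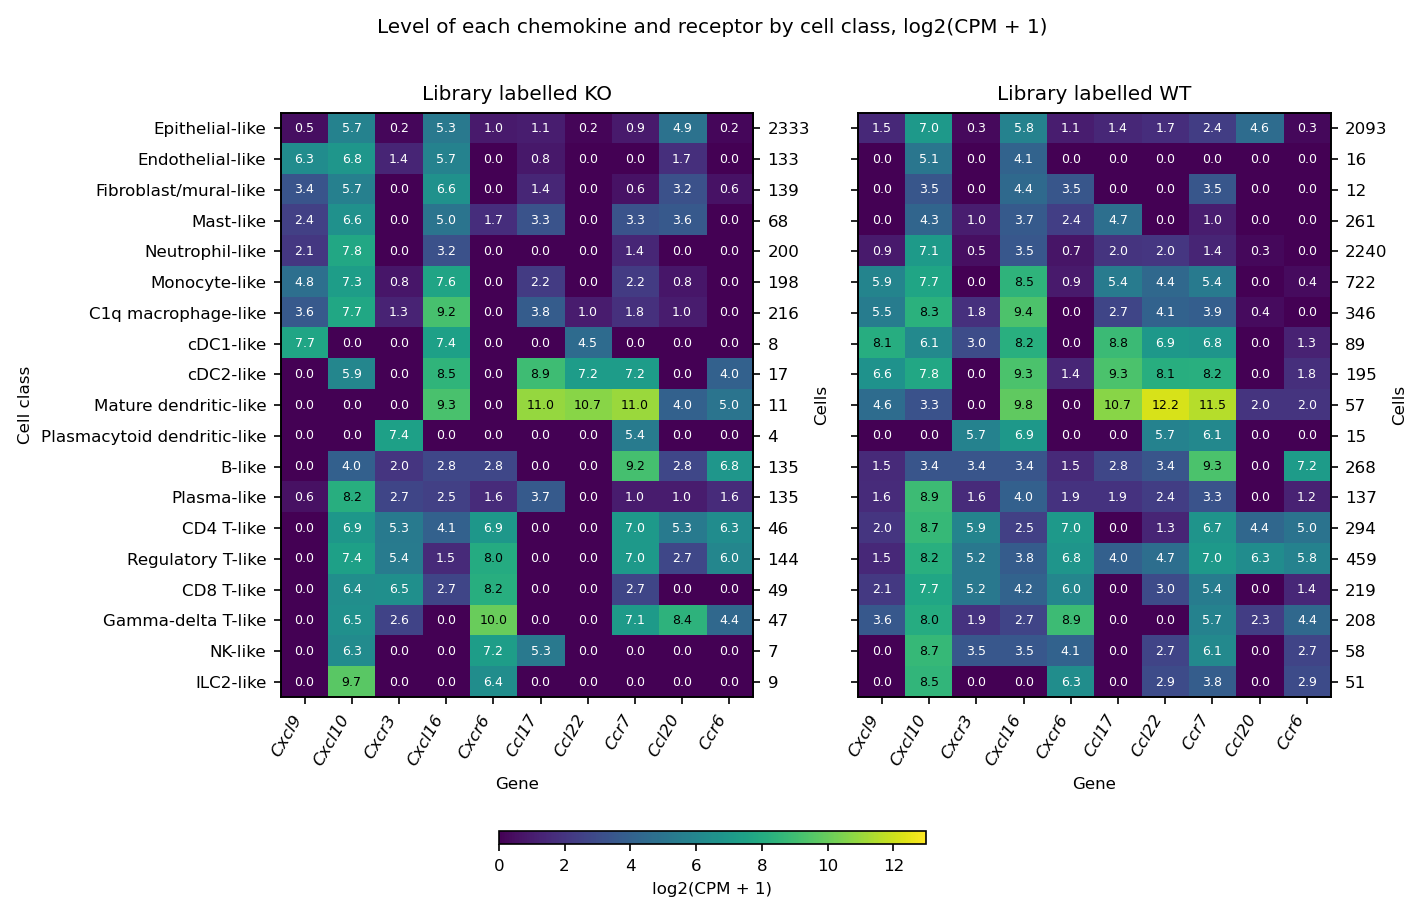
Levels of the 10 members as log2(CPM + 1) in cell classes of each library, 1 value per class and library. Ccl17 and Ccl22 are brightest in dendritic-like classes, at 1648 and 4685 CPM in mature dendritic-like cells of the library labelled WT, while Cxcl10 is coloured in most classes.

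Levels were compared between libraries in 12 classes with at least 20 cells in each library, and pairs of values are given with the library labelled KO first. A member was counted as higher or lower when its CPM differed at least 2-fold, the interval of the ratio left out 1, and the libraries together held at least 10 of its UMIs in the class. Of 120 gene and class pairs, 70 had enough UMIs. In 11 the library labelled KO was higher, in 24 lower, and in 35 neither. Ligands made up most of the lower pairs: Cxcl9 was lower in 4 of its 4 classes, Ccl22 in 5 of 6 and Cxcl10 in 5 of 12. The receptors Cxcr3, Cxcr6 and Ccr6 were higher in 1 of 6, 3 of 5 and 1 of 6 classes and lower in none of those tested. Ccr7 was lower in 5 of 10 classes and higher in 1.

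Background shares over all genes tested in a class put these counts in place. The members were chosen with earlier results of these data known, so the counts are descriptions. In monocyte-like cells 4 of 6 members were lower, against 9.47% of all genes, and none higher (3.57%). The members' median log2 ratio there was -2.14, beside -0.15 over all genes. With doublets kept and at a finer clustering, the monocyte-like call for Cxcl9 turned and that for Ccr7 fell short of 2-fold. The call for Ccl22 turned at the finer clustering. C1q macrophage-like cells had 3 of 7 lower (6.33%) and 1 higher (3.74%), with medians of -0.78 and -0.06. Conventional dendritic-like cells had 3 of 7 lower (5.23%) and none higher (3.8%), with medians of -0.62 and -0.05. Epithelial-like cells had 4 of 10 lower (10.9%) and none higher (3.15%), with medians of -0.57 and -0.08.

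T-like classes were mixed. Among CD8 T-like cells 2 of 5 members were lower (5.83%) and 2 higher (3.26%). Gamma-delta T-like cells had 3 of 5 higher (3.29%) and 1 lower (5.51%), the members' median log2 ratio being 1.14 beside -0.10 for all genes. Regulatory T-like cells had 4 of 9 lower (9.83%) and 1 higher (3.99%), and CD4 T-like cells 1 of 6 lower (4.63%) and 1 higher (2.94%). Plasma-like cells had 2 of 5 lower (7.8%) and 1 higher (6.11%). In mast-like cells 2 of 3 were higher (16.3%) and none lower (8.2%), the background share of higher genes being the largest of the 12 classes compared. None of 3 members was higher (2.7%) or lower (6.58%) in B-like cells, and none of 4 was higher (3.77%) or lower (6.6%) in neutrophil-like cells. Several calls rest on 1 to 5 cells of a library.

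Transcripts of neutrophils differed between the libraries in other cells, lower in the library labelled KO in most classes and higher in B-like cells (2979 and 613 CPM, 5 of 7 tested higher). Summed over the 10 neutrophil markers, C1q macrophage-like cells held 439 and 1609 CPM (8 of 10 lower), conventional dendritic-like cells 263 and 1505 CPM (5 of 10 lower), CD4 T-like cells 54.8 and 500 CPM (3 of 5 tested lower) and plasma-like cells 50.5 and 2865 CPM (9 of 10 lower). The defining marker Cxcr2 was at 0 in the macrophage- and plasma-like cells labelled KO, and in CD4 T-like cells of both libraries. Epithelial markers went the other way in conventional dendritic-like cells, at 511 and 275 CPM (3 of 9 tested higher). Their part in the members' values was not tested.

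**Figure D2:**
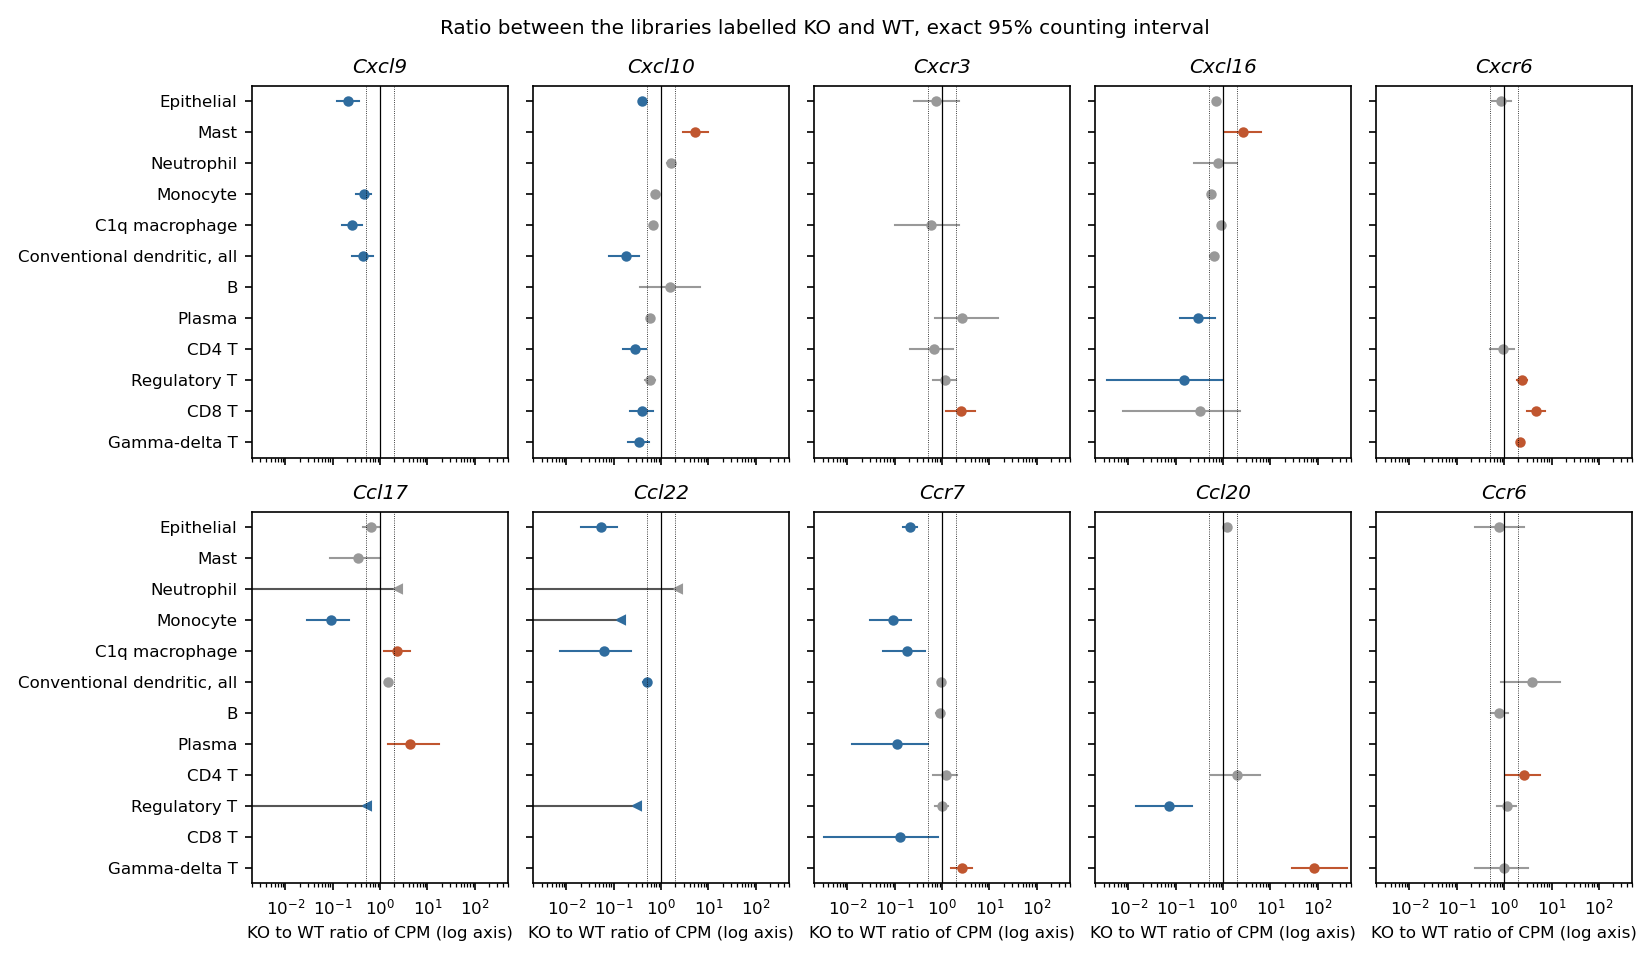
Ratio of CPM, the library labelled KO over the one labelled WT, on a log axis for each member and class with at least 10 UMIs, with exact 95% intervals for counting error. Points past 2-fold lie mostly on the lower side for ligands, such as 0.405 for Cxcl10 in epithelial-like cells, and on the higher side for Cxcr6, such as 2.2 in gamma-delta T-like cells.

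Cxcl9, the interferon gamma-induced CXCR3 ligand, was highest in the library labelled WT in cDC1-like cells, the cross-presenting dendritic subset, at 274 CPM (237 to 315). Among named classes it followed in cDC2-like cells at 99 CPM, in monocyte-like cells at 57.4 CPM (49.6 to 66.1) and in C1q macrophage-like cells at 43.3 CPM (36.7 to 50.8), the last pair having intervals that just overlap. The named T-like classes of that library ranged from 1.82 to 10.8 CPM. Among classes of at least 20 cells in the library labelled KO, endothelial-like cells were highest, at 80.2 CPM (65.4 to 97.4); its 8 cDC1-like cells stood at 200 CPM (118 to 315). The endothelial-like cells held 102 UMIs, 43% of all Cxcl9 UMIs there, in 13 of 133 cells, and 91.2% of those UMIs lay in 5 cells. Only 16 endothelial-like cells were found in the other library, so the class was not compared.

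All conventional dendritic-like cells together gave 55.7 and 129 CPM of Cxcl9 in the libraries labelled KO and WT, a ratio of 0.434 (0.254 to 0.696). The 18 UMIs of the first lay in 1 of its 8 cDC1-like cells, while the 329 of the second were spread over 40 cells. Monocyte-like cells gave 26.2 and 57.4 CPM, a ratio of 0.457 (0.309 to 0.658), from 3 and 22 cells. With doublets kept this ratio was 1.01, and at a finer clustering it was 1.63. C1q macrophage-like cells gave 11.4 and 43.3 CPM, a ratio of 0.262 (0.161 to 0.408). Cells with Cxcl9 there were 15 of 216 and 14 of 346, and without the 5 richest cells of each library the ratio was 1.37. Epithelial-like cells were near the bottom of both libraries, at 0.382 and 1.8 CPM, a ratio of 0.212, with a UMI in 12 of 2333 and 14 of 2093 cells. Over all cells Cxcl9 stood at 3.39 and 17.2 CPM, and the part of this difference in the epithelial-like value was not tested.

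Cxcl10, the broader interferon-induced CXCR3 ligand, was spread over most classes. In the library labelled WT the named classes of at least 20 cells ran from plasma-like cells, at 479 CPM (445 to 516), and CD4 T-like cells, at 418 CPM (371 to 471), down to B-like cells at 9.6 CPM and mature dendritic-like cells at 8.69 CPM. By the same limit of 20 cells, plasma-like cells were again the highest named class in the library labelled KO at 285 CPM (262 to 309), before neutrophil-like cells at 221 CPM (185 to 261) and C1q macrophage-like cells at 213 CPM (193 to 234), whose intervals overlap. Epithelial-like cells, being many and deep, held 59.6% and 40.4% of all Cxcl10 UMIs. The 9 type 2 innate lymphoid-like cells of that library stood at 827 CPM, with 66.7% of their 30 UMIs in 1 cell, and the 51 of the other at 369 CPM. Small unnamed clusters led by interferon-response genes were higher still, at 1962 CPM in a Mx1 and Rsad2 cluster of 37 monocyte/macrophage cells of the library labelled WT, where the other library had 2 such cells. That cluster was left unnamed because neutrophil markers were among its leading genes when set against the other monocyte/macrophage cells.

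In epithelial-like cells Cxcl10 stood at 52.7 CPM in the library labelled KO (3030 UMIs, 450 cells with a UMI) and at 130 CPM in the other (3827 UMIs, 446 cells), a ratio of 0.405 (0.386 to 0.425). After thinning each cell to 1000 UMIs, 3.62% (2.89 to 4.47) of 2267 cells and 6.46% (5.42 to 7.63) of 1997 cells held a Cxcl10 UMI. Unthinned shares were 19.3% and 21.3% at median depths of 19538 and 10076 UMIs. B-like cells, a class with little Cxcl10, held a thinned share of 1.52% and 1.17% at medians of 2336 and 1735 UMIs. Neutrophil markers moved with this result: all 10 were lower among the epithelial-like cells labelled KO, with a summed level of 127 against 906 CPM. Their part in the result was not tested.

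The epithelial difference was uneven over clusters, and the libraries filled them unequally: the largest were the Gpx2 cluster in the library labelled KO (491 and 186 cells) and the Smpx and Ttr cluster in the other (419 and 472 cells). The cluster led by Fst and Krt17 held 2253 of the 3827 UMIs of the library labelled WT, at 117 and 317 CPM in the libraries labelled KO and WT, a ratio of 0.37 (0.344 to 0.399). The Pnliprp2 cluster stood at 61.2 and 307 CPM, a ratio of 0.199 (0.172 to 0.23), and the proliferating Top2a cluster at 105 and 171 CPM, a ratio of 0.612. Going the other way, the Gsdmc4 and Car1 cluster stood at 49.7 and 13.9 CPM, a ratio of 3.58 (2.41 to 5.49). Defa24, Zg16 and Gpx2 clusters had ratios of 1.04, 1.15 and 0.902 for Cxcl10, with intervals that include 1. These differences between clusters were not tested.

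**Figure D3:**
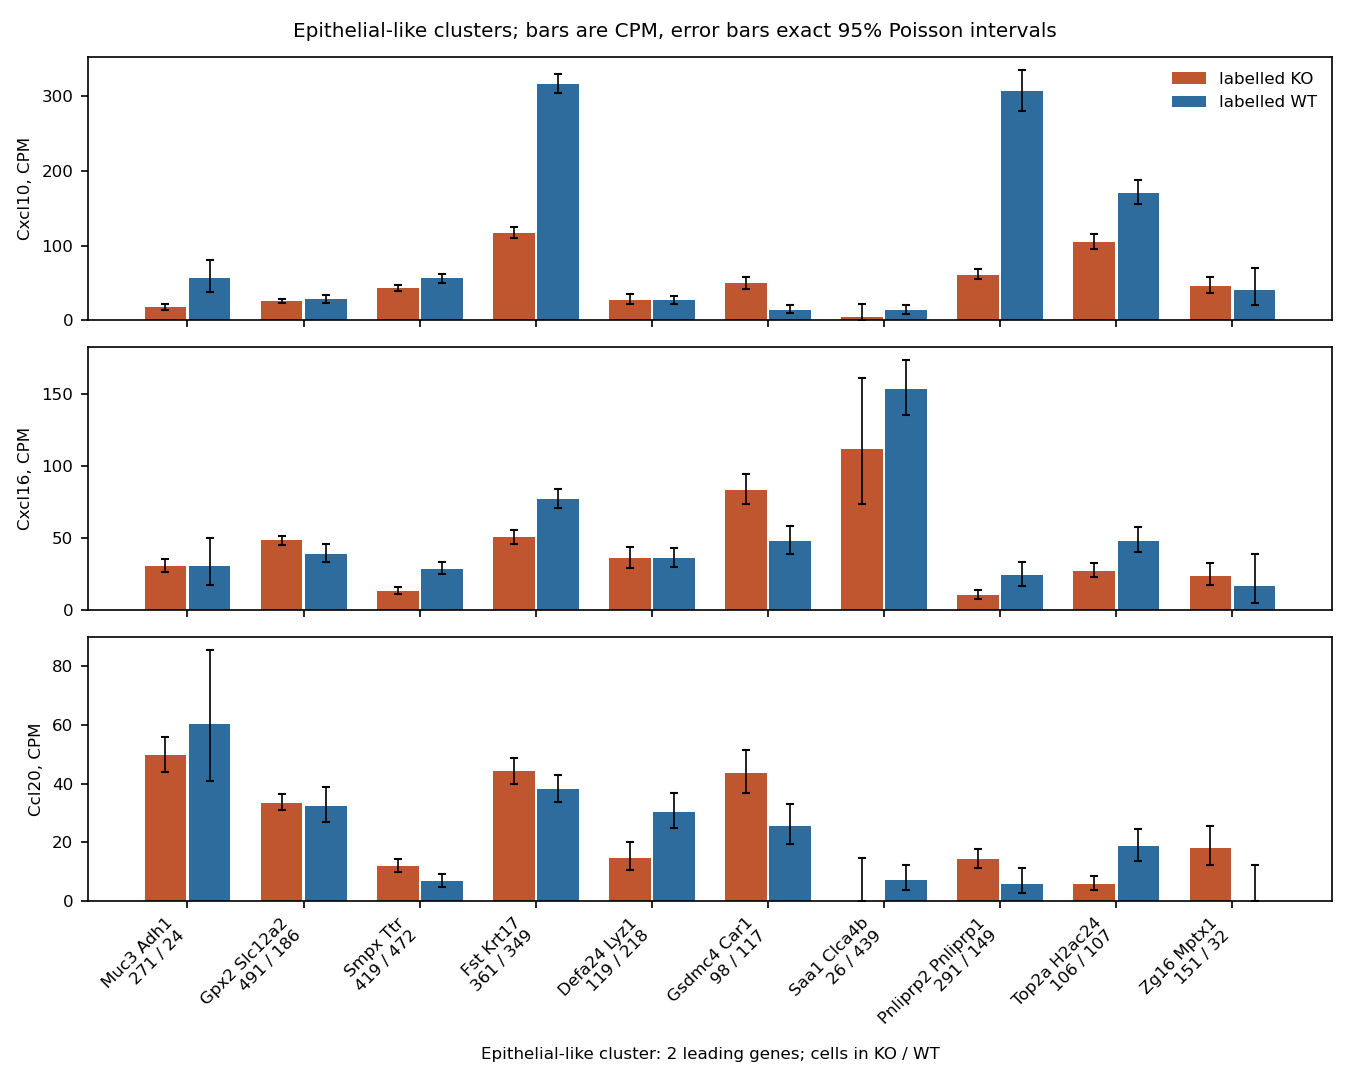
CPM of Cxcl10, Cxcl16 and Ccl20 in each epithelial-like cluster, named by its leading genes, for both libraries with exact 95% Poisson intervals. For Cxcl10 the Fst/Krt17 and Pnliprp2 clusters of the library labelled WT stand out at 317 and 307 CPM.

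CD4, CD8 and gamma-delta T-like cells and conventional dendritic-like cells also had less Cxcl10 in the library labelled KO. CD4 T-like cells gave 117 and 418 CPM, a ratio of 0.281 (0.155 to 0.471), from 15 and 278 UMIs. CD8 T-like cells gave 83.6 and 208 CPM, a ratio of 0.401, and gamma-delta T-like cells 90.9 and 261 CPM, a ratio of 0.348. Thinned shares with Cxcl10 overlapped: 11.4% (3.79 to 24.6) and 14.5% (10.6 to 19.1) of CD4 T-like cells and 8.33% (2.32 to 20) and 11.4% (7.43 to 16.5) of CD8 T-like cells. In gamma-delta T-like cells they were 4.44% (0.543 to 15.1) and 8.21% (4.76 to 13), also overlapping. There 83.3% of 18 and 64.8% of 193 UMIs lay in 5 cells of each library. Conventional dendritic-like cells gave 27.9 and 157 CPM, a ratio of 0.178 (0.0807 to 0.341), from 9 UMIs in 4 cells and 401 UMIs in 59 cells. Mast-like cells stood apart with 93.7 and 18.2 CPM, a ratio of 5.14 (2.86 to 9.63), but 88.1% of the 42 UMIs lay in 1 of 4 cells. Leaving out the 5 richest cells left no UMI in the library labelled KO, a bound of 0.946 against a floor of 3 UMIs.

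No call was made for Cxcl10 in macrophage-, monocyte-, plasma-, regulatory T-, neutrophil- or B-like cells. C1q macrophage-like cells gave 213 and 316 CPM, plasma-like cells 285 and 479 CPM (ratio 0.594) and regulatory T-like cells 166 and 289 CPM. Neutrophil-like cells leaned the other way at 221 and 134 CPM, a ratio of 1.65, from 20 and 165 cells with a UMI. The remaining CXCR3 ligand, Cxcl11, was sparse, with 47 and 120 UMIs in all cells, and in monocyte-like cells it had 2 and 22 UMIs, a ratio of 0.229 (0.0261 to 0.932). It was outside the naming rule and is given because it completes the ligand family.

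Cxcr3, the receptor, was found in T-like cells at low levels. It stood, in the library labelled WT, at 57.2 CPM (40.5 to 78.5) in CD4 T-like, 36.4 CPM (26 to 49.6) in regulatory T-like and 35.5 CPM (22 to 54.3) in CD8 T-like cells, with overlapping intervals. Among classes of at least 20 cells, CD8 T-like cells led in the library labelled KO at 89.1 CPM (51 to 145), before regulatory T-like cells at 41.9 CPM (26.3 to 63.5) and CD4 T-like cells at 39.1 CPM (12.7 to 91.4), again overlapping. Only the CD8 T-like ratio was past 2-fold, at 2.51 (1.22 to 5.04), from 16 UMIs in 12 of 49 cells and 21 UMIs in 18 of 219 cells. Thinned to 1000 UMIs, 8.33% (2.32 to 20) and 4.27% (1.97 to 7.94) of these cells held Cxcr3, intervals that overlap, where the unthinned shares were 24.5% and 8.22%. Without the mitochondrial filter the CD8 T-like ratio was 1.76, below 2-fold. Plasmacytoid dendritic-like cells held 4 UMIs in each library, from 4 and 15 cells, too few to compare. Epithelial-like cells, which should lack the gene, stood at 0.174 and 0.238 CPM.

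Cxcl16, the ligand of CXCR6, had its highest levels in myeloid cells, while the many and deep epithelial-like cells held 50% and 20.3% of its UMIs and C1q macrophage-like cells 27.6% and 30.7%. In the library labelled KO the main compared classes ran from C1q macrophage-like cells at 593 CPM (560 to 628) to conventional dendritic-like cells at 393 CPM (328 to 468), monocyte-like cells at 195 CPM (172 to 220) and epithelial-like cells at 37.8 CPM (36.2 to 39.4). The library labelled WT had 671 CPM (644 to 698), 603 CPM (573 to 633), 349 CPM (329 to 369) and 53.1 CPM (50.5 to 55.7) in the same order. In that library mature dendritic-like cells, at 895 CPM (798 to 1000), lay above C1q macrophage-like cells (the 11 of the other stood at 625 CPM), and cDC1-like cells, at 291 CPM (252 to 333), below monocyte-like cells with intervals that just overlap. A UMI was found in 74.1% and 89% of C1q macrophage-like cells, and thinned to 1000 UMIs in 41.9% (34.8 to 49.4) and 46.5% (41.1 to 52.1). Neutrophil-like cells held a thinned share of 0% (up to 1.87) of 195 cells and 0.89% of 2135 cells.

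None of these 4 classes passed 2-fold. The ratios were 0.559 in monocyte-like cells, 0.653 in conventional dendritic-like cells and 0.713 (0.667 to 0.761) in epithelial-like cells. Within the epithelium the level again parted by cluster, with 83.7 and 48.1 CPM in the Gsdmc4 cluster, a ratio of 1.74, and 13.4 and 29.1 CPM in the Smpx and Ttr cluster, a ratio of 0.461. The Saa1 and Clca4b cluster held the highest epithelial Cxcl16 in each library, at 112 and 154 CPM. The 3 calls came from classes with little Cxcl16: mast-like cells (14 and 11 UMIs, ratio 2.65, 1.12 to 6.45), plasma-like cells (9 and 22 UMIs, ratio 0.298) and regulatory T-like cells (1 and 14 UMIs, ratio 0.149). In the mast-like class of the library labelled KO all 9 of 9 tested epithelial markers were higher, their list summing to 6842 against 394 CPM with Cdx2 at 0 in the other library, and neutrophil markers were lower, at 274 against 3016 CPM. The part of either in the mast-like values of Cxcl10 and Cxcl16 was not tested.

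Cxcr6, the receptor of CXCL16, was held by T-like cells and was past 2-fold higher in the library labelled KO in 3 of the 5 classes tested. Gamma-delta T-like cells were the top class in both libraries, at 1050 CPM (912 to 1203) and 477 CPM (429 to 530), a ratio of 2.2 (1.85 to 2.62). It was found in 39 of 47 and 141 of 208 of these cells, and after thinning in 55.6% (40 to 70.4) and 35.4% (28.7 to 42.5). CD8 T-like cells gave 284 and 60.9 CPM, a ratio of 4.66 (2.98 to 7.36), from 20 of 49 and 30 of 219 cells. Regulatory T-like cells gave 259 and 107 CPM, a ratio of 2.41 (1.87 to 3.11), from 47 of 144 and 70 of 459 cells. CD4 T-like cells did not share the difference, at 117 (65.7 to 194) and 125 (99.5 to 155) CPM. Epithelial-like cells stood at 0.939 and 1.09 CPM.

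Cxcr6 was higher across sub-clusters as well. Regulatory T-like sub-clusters led by Penk, by Il10 and by Izumo1r gave 214 and 112, 445 and 215, and 72.9 and 20.6 CPM, with ratios of 1.9, 2.07 and 3.54. The CD8 T-like sub-cluster led by Cd7 and Gzma gave 200 and 64.7 CPM of Cxcr6, a ratio of 3.1 (1.69 to 5.73). Thinned shares in CD8 T-like cells were 16.7% (7.48 to 30.2) and 4.74% (2.3 to 8.54), and in regulatory T-like cells 14.8% (9.39 to 21.7) and 8.24% (5.84 to 11.2). With every cell given equal weight the gamma-delta T-like ratio was 1.82, below 2-fold. In that class 4 of 7 tested epithelial markers were higher in the library labelled KO, the list summing to 525 against 192 CPM with Cdx2 at 0 in the other, and mast markers summed to 1974 against 230 CPM. Their part was not tested. Within CD8 T-like cells of the library labelled KO, 7 of the 12 cells with Cxcr3 also held Cxcr6, beside 35.1% of those without Cxcr3. In the other library it was 2 of 18, beside 13.9%.

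**Figure D4:**
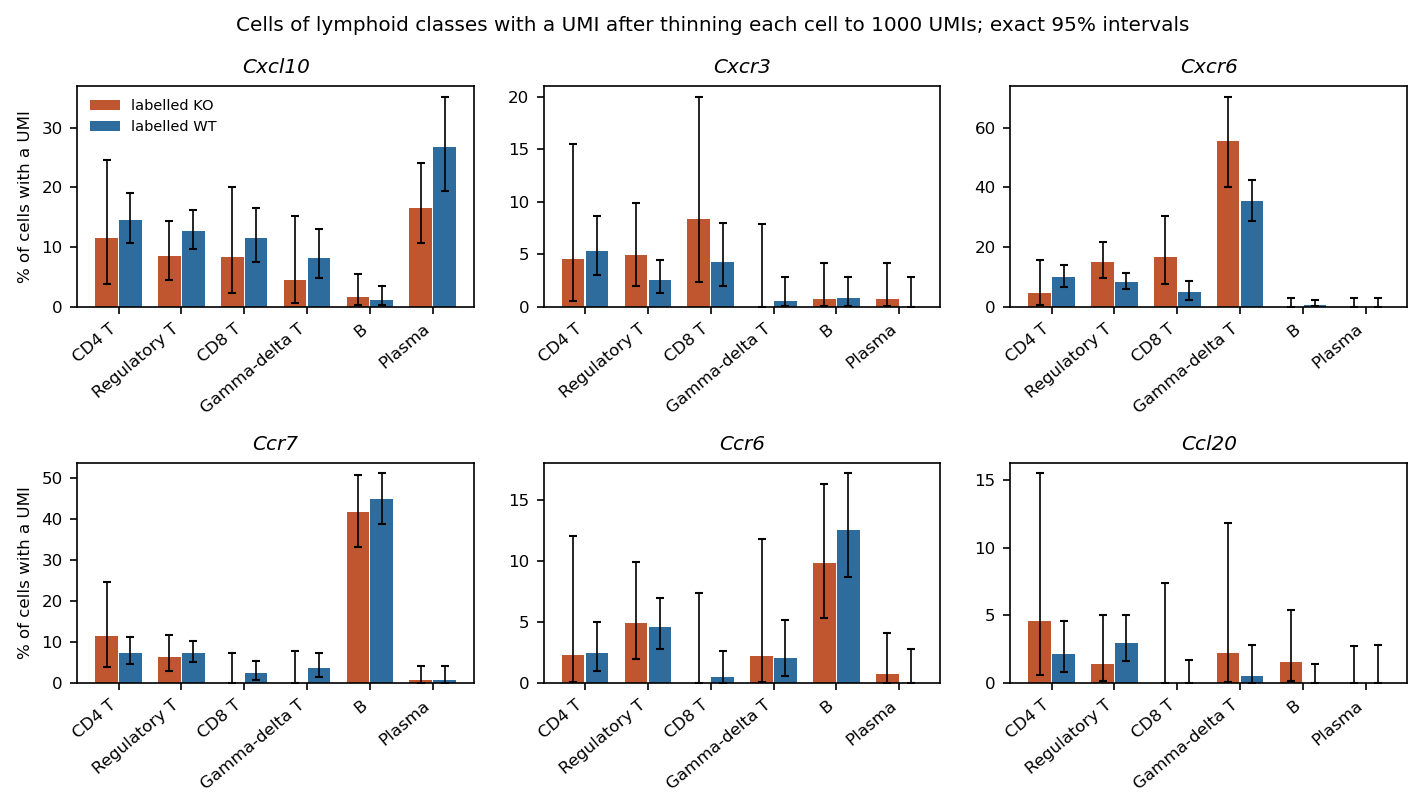
Share of cells with a UMI after thinning every cell to 1000 UMIs, for 6 members in the lymphoid classes of both libraries, with exact 95% Clopper-Pearson intervals. The share for Cxcr6 in gamma-delta T-like cells was 55.6% in the library labelled KO and 35.4% in the one labelled WT, while Ccr7 in B-like cells gave 41.7% and 44.9%.

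Ccl17, a CCR4 ligand, was held mainly by conventional dendritic-like cells, with 362 of its 506 UMIs labelled KO and 1988 of its 2615 labelled WT. Conventional dendritic-like cells held 1121 CPM (1009 to 1243) in the library labelled KO and 777 CPM (743 to 812) in the other, a ratio of 1.44 (1.29 to 1.61), short of 2-fold. The UMIs lay in 22 of 43 and 179 of 382 cells. Thinned shares were 36.6% (22.1 to 53.1) and 26.9% (22.4 to 31.6). Equal weight per cell gave a ratio of 1.31. Without the 5 richest cells of each library it was 0.551, but that step takes 5 of 43 cells, with 73.8% of the UMIs, from one library and 5 of 382, with 18.7%, from the other, and so lowers the ratio by its construction. By subset, in the library labelled WT, mature dendritic-like cells, which have matured for migration, led at 1648 CPM (1515 to 1789), before cDC2-like cells at 638 CPM (595 to 684) and cDC1-like cells at 457 CPM (409 to 510). In the library labelled KO the 11 mature dendritic-like cells stood at 1997 CPM, the 17 cDC2-like cells at 493 CPM and the 8 cDC1-like cells at 0. An unnamed set of 7 dendritic-like cells stood at 4701 CPM there, with 49.4% of its 166 UMIs in 1 cell, against 1172 CPM in 41 cells of the other library.

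Ccl17 was lower in every other class of at least 20 cells than in conventional dendritic-like cells as a whole. The unnamed monocyte and macrophage sub-clusters came next in the library labelled WT, at 210 CPM (189 to 233) from 357 UMIs in 31 of 238 cells, beside 23.3 CPM from 18 UMIs in 4 of 105 cells in the other. Monocyte-like cells gave 3.75 and 41.1 CPM, a ratio of 0.0913 (0.0292 to 0.218), from 2 and 24 cells. Of the 138 UMIs in the library labelled WT, 110 lay in a sub-cluster led by Ccl24, at 162 CPM against 2.01 CPM in the other library. C1q macrophage-like cells gave 12.9 and 5.66 CPM, a ratio of 2.27 (1.22 to 4.29), but 92.3% of the 26 UMIs lay in 1 of 2 cells, and the ratio was 0.0711 with doublets kept and 0.278 without the mitochondrial filter. In plasma-like cells all 24 UMIs of the library labelled KO lay in 1 cell, beside 4 UMIs in the other (ratio 4.37). Regulatory T-like cells had 0 and 16 UMIs, at least 2.55-fold lower against a floor of 3 UMIs per library, and 81.2% of the 16 lay in 1 of 3 cells. Epithelial-like cells stood at 1.08 and 1.7 CPM.

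Ccl22, the other CCR4 ligand, had the same home and a different ratio. In conventional dendritic-like cells it stood at 465 CPM (393 to 545) in the library labelled KO and at 936 CPM (899 to 974) in the one labelled WT, a ratio of 0.496 (0.418 to 0.586), just past 2-fold. The counts behind it were 150 UMIs in 16 of 43 cells and 2395 UMIs in 172 of 382 cells. Giving each cell equal weight brought the ratio to 0.637, below 2-fold, and leaving out the 5 richest cells to 0.196. As for Ccl17, the latter step lowers the ratio by its construction, since it takes 74% of the UMIs from one library and 23.7% from the other. Mature dendritic-like cells carried 63.7% and 60.4% of all Ccl22 UMIs and stood at 1662 and 4685 CPM, cDC2-like cells at 144 and 279 CPM, and cDC1-like cells at 22.2 and 121 CPM. These subsets hold 8 to 17 cells in the library labelled KO and are given side by side without a ratio. Mature dendritic-like cells were 25.6% (13.5 to 41.2) of its dendritic-like cells and 14.9% (11.5 to 18.9) in the other, and the 12 mature dendritic markers summed to 3144 and 1899 CPM over all dendritic-like cells, so the pooled ratio also carries this difference in make-up.

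**Figure D5:**
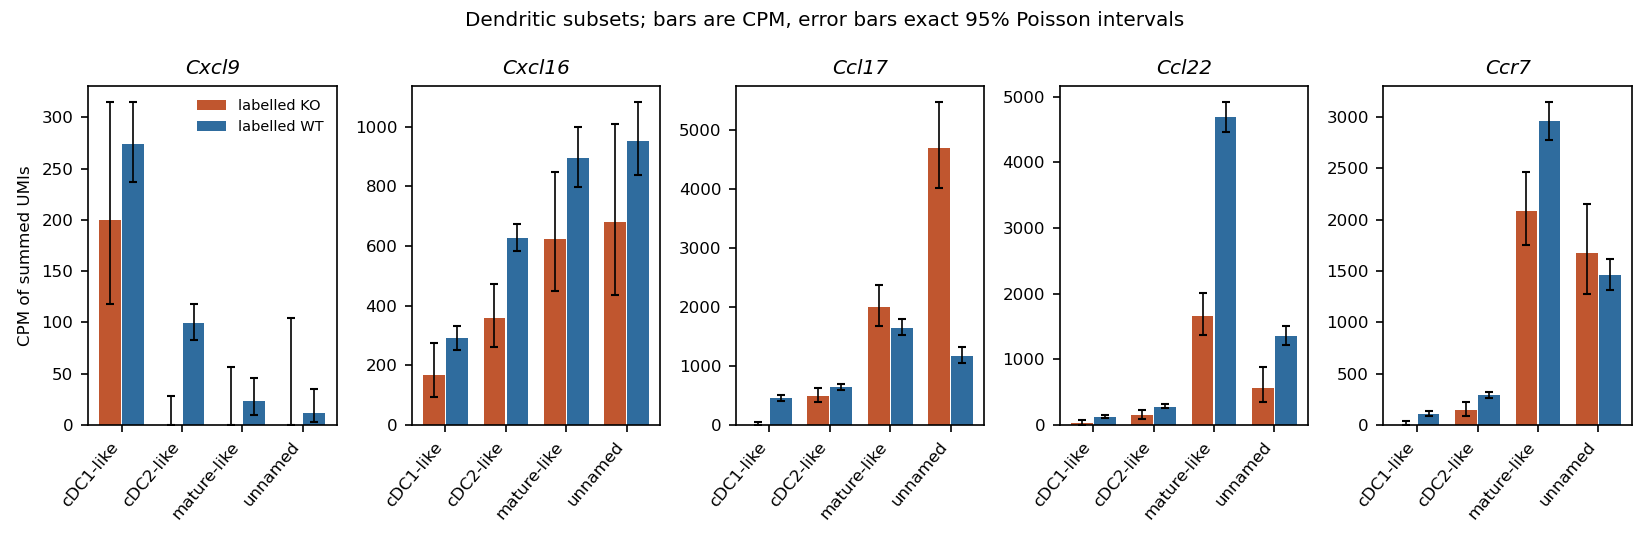
CPM of Cxcl9, Cxcl16, Ccl17, Ccl22 and Ccr7 in the dendritic-like subsets of both libraries with exact 95% Poisson intervals. Ccl22 and Ccr7 peak in mature dendritic-like cells, at 4685 and 2959 CPM in the library labelled WT, and Cxcl9 in cDC1-like cells, at 274 CPM.

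Ccl22 was also lower in the library labelled KO in classes that hold little of it. Over all cells it stood at 2.44 and 51.2 CPM, and the part of this difference in the values of these classes was not tested. Monocyte-like cells had 0 and 67 UMIs, at least 8.86-fold lower, although 71.6% of the 67 lay in 1 of 10 cells and a finer clustering gave a ratio of 2.67. C1q macrophage-like cells had 2 and 56 UMIs, a ratio of 0.0623, from 2 and 10 cells, 91.1% of the 56 lying in 5 of them. The epithelial-like cells had 7 and 67 UMIs, a ratio of 0.0535, from 6 and 46 cells. Regulatory T-like cells had 0 and 27 UMIs, at least 4.3-fold lower, the 27 lying in 1 cell. Neutrophil-like cells had 0 and 14 UMIs, and no fold is given because 3 UMIs in the first would already exceed the level of the second.

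Within mature dendritic-like cells of the library labelled WT, 45 of 57 held Ccl17, 54 held Ccl22, and 43 held both. The 11 such cells labelled KO had Ccl17 in 9, Ccl22 in 8 and both in 7. In the library labelled WT, Ccl22 was in 95.6% of the cells with Ccl17 and in 91.7% of those without, so the joint count there follows from how common each gene is. The receptor of these ligands, Ccr4, is named although it was outside the naming rule, after its values were seen. It stood at 43.8 CPM in regulatory T-like cells of the library labelled KO and 96.5 CPM in the other, a ratio of 0.454 (0.276 to 0.718), from 23 and 106 UMIs. In CD4 T-like cells Ccr4 gave 141 and 125 CPM, a ratio of 1.13 (0.637 to 1.89).

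Ccr7, which guides cells to lymphatics, was shared by dendritic- and B-like cells. Mature dendritic-like cells led in the library labelled WT at 2959 CPM (2781 to 3147), well above B-like cells at 647 CPM (580 to 720), cDC2-like cells at 289 CPM (260 to 320), regulatory T-like cells at 131 CPM (111 to 154), cDC1-like cells at 109 CPM and CD4 T-like cells at 105 CPM (82.1 to 133), the last 3 overlapping. The library labelled KO had 2089 CPM in its 11 mature dendritic-like cells, 583 CPM (505 to 671) in B-like cells, 128 CPM (98.9 to 162) in regulatory T-like cells and 125 CPM (71.6 to 203) in CD4 T-like cells. Pooled ratios in these main sources were close to 1: 0.932 (0.805 to 1.07) in conventional dendritic-like cells and 0.902 in B-like cells. The dendritic ratio also carries the difference in make-up given for Ccl22. By subset, the mature dendritic-like cells stood at 2089 (1754 to 2469) and 2959 CPM. The cDC2-like cells stood at 144 (86.8 to 225) and 289 CPM, and the cDC1-like cells at 0 (up to 40.9) and 109 CPM. Only the unnamed dendritic-like cells were higher in the library labelled KO, at 1671 (1272 to 2155) and 1457 CPM. B-like cells with Ccr7 were 92 of 135 and 159 of 268, and thinned shares were 41.7% (33.2 to 50.6) and 44.9% (38.7 to 51.2), against 0% (up to 0.163) of 2267 and 0.351% of 1997 epithelial-like cells. Leaving out the 5 richest cells, the same unequal share of the 43 and 382 cells as above, gave a dendritic ratio of 0.493, and equal weight per cell gave 1.

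All 5 lower calls for Ccr7 came from classes at or below 42.3 CPM in both libraries. Over all cells Ccr7 stood at 8.99 and 57 CPM, and the part of this difference in those calls was not tested. Monocyte-like cells gave 3.75 and 39.9 CPM, a ratio of 0.094, from 4 and 28 cells, and the same Ccl24-led sub-cluster held 6.04 and 155 CPM of Ccr7. With doublets kept the monocyte ratio was 0.685 and at a finer clustering 0.667. C1q macrophage-like cells had 5 and 49 UMIs (0.178) in 5 and 8 cells, CD8 T-like cells 1 and 25 (0.132) in 1 and 12 cells, plasma-like cells 2 and 13 (0.112), and epithelial-like cells 51 and 122 (0.886 and 4.14 CPM, ratio 0.214). In plasma-like cells 84.6% of the 13 UMIs lay in 1 cell. Gamma-delta T-like cells were the exception, at 136 and 52.7 CPM, a ratio of 2.59 (1.52 to 4.33), from 9 of 47 and 16 of 208 cells. After thinning, however, 0% (up to 7.87) of 45 and 3.59% (1.46 to 7.26) of 195 of them held Ccr7, with overlapping intervals. Thinned to 2000 UMIs instead, 11.6% of 43 and 4.14% of 169 held it, and unthinned shares were 19.1% and 7.69%. The direction of the thinned share therefore depended on the depth chosen. Without the 5 richest cells the ratio was 1.33.

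The CCR7 ligand Ccl21a, made by lymphatic endothelium, had 252 UMIs in the 133 endothelial-like cells of the library labelled KO (198 CPM) and 15 in the 16 of the other (249 CPM). Ccl19 had 4 and 0 UMIs in all cells. Both were outside the naming rule and are given as the ligands of Ccr7. Within mature dendritic-like cells of the library labelled WT, 52 of 57 held both Ccl22 and Ccr7, and 6 of 11 in the other library. Each of the genes by itself was in 54 of those 57 cells and in 8 of those 11.

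Ccl20, the epithelial ligand of CCR6, was held mostly by epithelial-like cells, which had 93.7% of the gene's UMIs labelled KO and 81.8% of those labelled WT. Their level was 28.6 CPM (27.2 to 30) and 23.5 CPM (21.8 to 25.4), a ratio of 1.21 (1.11 to 1.33), from 260 of 2333 and 147 of 2093 cells. Thinned shares were 1.76% (1.26 to 2.39) and 0.951% (0.574 to 1.48), and unthinned shares 11.1% and 7.02%. Among epithelial clusters, the Muc3 cluster had the highest level in each library, at 49.6 and 60.3 CPM. Ratios for Ccl20 ran from 0.3 (0.176 to 0.499) in the proliferating Top2a cluster and 0.483 in the Defa24 cluster to 1.71 in the Gsdmc4 cluster and 2.43 (1.21 to 5.54) in the Pnliprp2 cluster. The Fst cluster, lower in Cxcl10, was at 44.2 and 38.1 CPM of Ccl20 (ratio 1.16, 0.992 to 1.36). With equal weight per cell the epithelial ratio was 1.51.

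T-like cells also held Ccl20. Regulatory T-like cells gave 5.72 and 78.3 CPM, a ratio of 0.073 (0.0148 to 0.221), from 2 of 144 and 18 of 459 cells, and thinned shares of 1.41% (0.171 to 5) and 2.97% (1.59 to 5.03) overlapped. Gamma-delta T-like cells gave 343 and 4.05 CPM, a ratio of 84.7 (27.8 to 421), but all 68 UMIs lay in 1 of 47 cells. CD4 T-like cells had 5 and 13 UMIs.

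Ccr6, the CCL20 receptor, was highest in B-like cells in both libraries, at 112 CPM (79.2 to 154) and 142 CPM (112 to 178), a ratio of 0.788 (0.518 to 1.18). They were followed by CD4 T-like cells at 78.3 CPM (37.5 to 144) and regulatory T-like cells at 61 CPM (41.7 to 86.1) in the library labelled KO, and by regulatory T-like cells at 53.7 CPM (40.9 to 69.3) and CD4 T-like cells at 30.1 CPM (18.4 to 46.5) in the other, each neighbouring pair overlapping. CD4 T-like cells were the only class past 2-fold, with a ratio of 2.6 (1.09 to 5.82) from 10 UMIs in 7 cells and 20 UMIs in 18 cells, which became 0.963 without the 5 richest cells. Gamma-delta T-like cells gave 20.2 and 20.3 CPM. Thinned shares in B-like cells were 9.85% (5.35 to 16.3) and 12.5% (8.71 to 17.2), against 0% of epithelial-like cells (up to 0.163 of 2267 cells and 0.185 of 1997). Neutrophil markers moved in this class too, 5 of 7 tested being higher in the library labelled KO and their list summing to 2979 against 613 CPM, and their part was not tested.

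Across the 29 class and library sums of at least 20 cells, some members had alike levels over classes. Pearson r of log2(CPM + 1) was 0.80 for Ccl17 with Ccl22, 0.80 for Cxcl9 with Cxcl16, 0.72 for Ccr7 with Ccr6 and 0.67 for Cxcr3 with Cxcr6, but 0.05 for Cxcl9 with Cxcl10. The points share libraries and depth, so these are descriptions, and they compare classes, not cells: in regulatory T-like cells of the library labelled WT, 12.1% of cells with Cxcr3 held Cxcr6, beside 15.5% of those without. Among 7629 genes the 2 most alike were Cd3g and Cd3d for Cxcr6 (0.96 and 0.95), Htr7 and Cst3 for Ccl17 (0.90 and 0.85), Slc8a1 and Hfe for Cxcl16 (0.90 and 0.87), and Hfe and Atox1 for Cxcl9 (0.85 and 0.84). They were A430093F15Rik and Gm2682 for Cxcr3 (0.89 and 0.87), Mif4gd and E430014B02Rik for Ccr6 (0.89 and 0.85), and Map3k1 and Gm37531 for Ccr7 (0.85 and 0.81). Etv3 and Il12b came nearest to Ccl22 (0.84 and 0.82), Il17re and Rbm24 to Ccl20 (0.83 and 0.76), and Impa2 and Vsir to Cxcl10 (0.67 and 0.63).

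Genes of the pathways that induce these chemokines were compared in the same way. Ifng, the inducer of Cxcl9 and Cxcl10, stood at 66.9 CPM in CD8 T-like cells of the library labelled KO and at 247 CPM in the other, a ratio of 0.271 (0.137 to 0.487), from 8 of 49 and 68 of 219 cells. Il12b, which drives interferon gamma production, had 1 and 126 UMIs in conventional dendritic-like cells, a ratio of 0.0629 (0.00158 to 0.357). Il18, another such cytokine, was higher in epithelial-like cells, at 90.8 and 44.8 CPM, a ratio of 2.02 (1.91 to 2.15). Gbp4, an interferon-induced GTPase, gave 27.9 and 113 CPM in CD8 T-like cells, and the transcription factor Irf1 gave 110 and 272 CPM in neutrophil-like cells. Ido1, a tryptophan-degrading enzyme, had 22 and 52 UMIs in epithelial-like cells, a ratio of 0.217. These genes are named because they were called and do not stand for the pathway. Outside the naming rule, Ifngr1 and Ifngr2, the receptor chains of interferon gamma, and the kinase Jak1 were not called in their highest classes, with ratios of 1.24 in regulatory T-like, 1.21 in C1q macrophage-like and 1.26 in CD4 T-like cells.

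Among 12 genes of the NF-kB and IL-17 pathways, which induce Ccl20, 12 were tested in epithelial-like cells, with 3 lower (10.9% of all genes) and none higher (3.15%), and 11 in gamma-delta T-like cells, with 3 lower (5.51%) and none higher (3.29%). The cytokine Il17f gave 111 and 1103 CPM in gamma-delta T-like cells, a ratio of 0.101 (0.0628 to 0.154), and Tnf gave 172 and 754 CPM in monocyte-like cells, a ratio of 0.228. Of 9 type 2 genes, which induce Ccl17 and Ccl22, 5 were tested in conventional dendritic-like cells and none was called. The type 2 cytokine Il4 gave 66.9 and 247 CPM in mast-like cells, a ratio of 0.271 (0.179 to 0.398), and Il13 had 4 and 48 UMIs there. The growth factor Csf2 had 2 and 42 UMIs in gamma-delta T-like cells, a ratio of 0.178 (0.0209 to 0.684). Irf4, a transcription factor of plasma cells and dendritic cells, gave 168 and 398 CPM in B-like cells.

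Other positioning genes showed no single direction. In plasma-like cells Ccr10, the homing receptor of antibody-secreting cells, gave 270 and 124 CPM, a ratio of 2.17 (1.83 to 2.59). Cxcr4, the receptor of CXCL12, gave 516 and 1369 CPM in B-like cells, a ratio of 0.377 (0.317 to 0.445). The CX3CR1 ligand Cx3cl1 had 12 and 0 UMIs in gamma-delta T-like cells, at least 14.9-fold higher against the floor, the 12 lying in 3 cells. Of 22 such genes, 21 were tested in epithelial-like cells, with 7 lower (10.9% of all genes) and 2 higher (3.15%), 17 in conventional dendritic-like cells, with 4 lower (5.23%) and 1 higher (3.8%), and 15 in regulatory T-like cells, with 4 lower (9.83%) and none higher (3.99%).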

How the data were processed

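The 2 single-cell matrices, 1 per genotype, held counts of UMIs per gene and barcode, which the authors made with Cell Ranger 7.2.0, per the file headers, on build GRCm39, per the submitters' processing notes. The labels' protocols give no further step. No deposited file assigns cell types.

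Barcodes (4896 labelled KO and 9512 labelled WT, with 75024663 and 59189995 UMIs) passed if 200 genes or more were seen and mitochondrial transcripts stayed below 20%. The doublet caller marked 0.0456% and 0% on its automatic threshold and so had not worked. Instead the highest-scoring 154 (3.51%) and 633 (7.12%) cells were removed, at 0.8% per 1000 cells. Clustering (scanpy 1.11.5, Leiden resolution 1, with the members and the counted lists left out of the genes used) gave 28 clusters and 33 sub-clusters, named X-like from fixed markers. The cut for naming was set after the values were seen.

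UMIs were summed per class and library. CPM has exact Poisson intervals, a ratio an exact conditional binomial interval, and a share an exact Clopper-Pearson interval, all at 95% and for counting error only. A fold against 0 UMIs uses a floor of 3 UMIs per library. The ratio interval and the call rule were tested on simulated sums with Poisson error. Those sums hold no spread between cells, so the test does not cover UMIs that lie in a few cells. All 10 members are described. List genes called in their own highest compared class are named, and others are marked as outside that rule. Counts over the interferon gamma gene list are not reported here. Members and lists were chosen with earlier results of these data known. Alternatives were equal weight per cell, no mitochondrial filter, no doublet removal, resolution 2, leaving out the 5 richest cells per library, subtracting the lowest class, another fold and another UMI minimum.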

Additional observations from a re-analysis of the deposited data

Results flagged for a closer look

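For 5 members the ratio, library labelled KO over library labelled WT, passed 2-fold upwards in one class and downwards in another. The difference between classes was not tested in any of them. Cxcl10 was at 5.14 in mast-like and 0.405 in epithelial-like cells. Cxcl16 was at 2.65 in mast-like and 0.298 in plasma-like cells. Ccl17 was at 2.27 in C1q macrophage-like and 0.0913 in monocyte-like cells. Ccr7 was at 2.59 in gamma-delta T-like and 0.214 in epithelial-like cells. Ccl20 was at 84.7 in gamma-delta T-like and 0.073 in regulatory T-like cells. The higher value for Ccl20 came from 1 cell, and those for Cxcl10 and Ccl17 had 88.1% and 92.3% of their UMIs in 1 cell.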

How the results depend on the processing

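No paired analysis was possible because each genotype has 1 library. Of 35 calls, all 35 kept their direction with equal weight per cell (28 past 2-fold), 31 of the 32 with a value without the mitochondrial filter (26), 30 of 32 with doublets kept (23), 30 of 32 at resolution 2 (28), 21 of 24 without the 5 richest cells per library (18) and 31 of 31 with the lowest class subtracted (31). Subtracting the lowest class could not change the ratios of Cxcl9, Cxcr3, Cxcr6, Ccl17, Ccl22, Ccl20 and Ccr6, because that class stood at 0 CPM in both libraries. A pair left at or below 0 CPM in a library gave no value. The 11 higher calls became 6 with at least 50 UMIs (46 pairs) and 2 without the 5 richest cells (45 pairs).

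In the compared class with the most UMIs of each member over both libraries together, equal weight per cell moved the ratio to 0.484 for Cxcl10, 0.546 for Cxcl16 and 1.51 for Ccl20 in epithelial-like cells, 0.222 for Cxcl9 and 0.637 for Ccl22 in conventional dendritic-like cells, and 1.82 for Cxcr6 in gamma-delta T-like cells. Without the 5 richest cells the dendritic-like ratios were 0.551 for Ccl17, 0.196 for Ccl22 and 0.493 for Ccr7. For Cxcl9 this left no UMI in the dendritic-like cells labelled KO, and 0.157 is a bound against the floor of 3 UMIs. Subtracting the lowest class gave 0.313 for epithelial Cxcl10, and keeping doublets 0.665 for epithelial Cxcl16. Directions turned for Ccl17 in C1q macrophage-like cells (0.278 without the mitochondrial filter, 0.0711 with doublets kept), Cxcl9 in monocyte-like cells (1.01 with doublets kept, 1.63 at resolution 2) and Ccl22 in monocyte-like cells (2.67 at resolution 2). Without the 5 richest cells they also turned for Ccr6 in CD4 T-like (0.963), Cxcl10 in mast-like (0.946) and Cxcl9 in C1q macrophage-like cells (1.37). The mast-like value is a bound against the floor of 3 UMIs, no Cxcl10 UMI being left in the library labelled KO. Dropping cells leaves fewer UMIs, and 5 cells are a larger share of the smaller class; the cause of the other shifts was not tested. Depth limits Cxcr3 and Ccr6, at 83 and 152 and at 104 and 210 UMIs in all cells.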
